A study of Rattus norvegicus with 28 samples.

Results

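The genes described here act at several levels of Wnt signalling: the Wnt ligands, their Frizzled and LRP receptors, the R-spondins with their LGR receptors, the secreted antagonists, the Axins and the TCF/LEF transcription factors. They were chosen by gene symbol, with no measured value in the rule but with earlier results of these data known. Of 28459 symbols listed in any of the count tables, 55 were members. All 55 were listed among the 23139 genes of the microglial tables, 49 among the 20268 genes of the astrocyte ENV set and 50 among the 20056 genes of the astrocyte LPS set. By role they were 19 Wnt ligands, 10 Frizzled receptors, 2 LRP co-receptors, 7 R-spondins or LGR receptors, 11 secreted antagonists, 2 Axins and 4 TCF/LEF factors.

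Messenger RNA was sequenced from primary glia of Wistar rat cortex taken at postnatal day 1, with no genetic change named for any group. Mixed cultures were kept for 10 days, after which microglia were detached by shaking and purified on CD11b/c beads, an integrin-based selection for myeloid cells. The 8 groups were microglia or astrocytes given HERV-W ENV (the recombinant envelope protein of a human endogenous retrovirus, 1 µg/ml), its buffer, LPS (a bacterial cell wall lipid sensed by TLR4, 100 ng/ml) or its vehicle H2O. Each microglial group had 3 libraries and each astrocyte group 4. Treatment began 1 day after isolation in microglia and 3 days after it in astrocytes. All cultures were started in medium with serum, and the sources used here do not state how long treatment lasted. Nothing in the labels says that replicates came from separate litters or cultures. The p-values therefore speak only of library-to-library spread, part of which may be technical.

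Wnt proteins are secreted lipid-modified ligands that bind a Frizzled receptor together with LRP5 or LRP6. In the canonical branch this stops the Axin-based complex from degrading beta-catenin, which then works with TCF/LEF factors to switch on target genes such as Axin2, itself an inhibitor of the pathway. R-spondins bind LGR receptors and keep Frizzleds at the surface. SFRPs, Frzb and Wif1 bind Wnt ligands, and sclerostin-type proteins and some, but not all, Dickkopf proteins bind the LRPs. In the brain the pathway is known for patterning, for the growth and barrier properties of vessels (Wnt7a and Wnt7b) and for glial maturation.

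Promoter sequence is shown for 4 members, Axin2 and Lef1 because they fell in stimulated microglia (a target gene and a TCF/LEF factor), and Wnt6 and Wnt10a because they follow each other in the rat gene order and both had more counts in ENV-treated than in buffer-treated microglia. Each is the 250 bases before the annotated start, 5′ to 3′ on the gene's strand, from RefSeq on assembly GRCr8, a later build than the mRatBN7.2 named for the counts. Axin2 lies at chr10:94398535-94398784, Lef1 at chr2:222340463-222340712, Wnt6 at chr9:83778302-83778551 and Wnt10a at chr9:83798344-83798593, all on the plus strand. Capitals mark matches to a TCF/LEF motif (CTTTGAA or CTTTGAT, either strand) in the Axin2 and Lef1 sequences, and to an NF-kappaB consensus motif (either strand) in the Wnt6 and Wnt10a sequences.
Axin2: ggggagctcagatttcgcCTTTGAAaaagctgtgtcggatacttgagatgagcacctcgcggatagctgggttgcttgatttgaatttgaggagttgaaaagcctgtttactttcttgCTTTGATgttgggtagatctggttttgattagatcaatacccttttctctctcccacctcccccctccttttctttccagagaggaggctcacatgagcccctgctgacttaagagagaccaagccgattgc
Lef1: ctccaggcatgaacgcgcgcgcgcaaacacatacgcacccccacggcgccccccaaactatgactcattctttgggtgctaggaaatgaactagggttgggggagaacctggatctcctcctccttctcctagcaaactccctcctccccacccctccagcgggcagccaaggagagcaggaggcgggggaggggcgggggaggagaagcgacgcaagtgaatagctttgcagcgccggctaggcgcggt
Wnt6: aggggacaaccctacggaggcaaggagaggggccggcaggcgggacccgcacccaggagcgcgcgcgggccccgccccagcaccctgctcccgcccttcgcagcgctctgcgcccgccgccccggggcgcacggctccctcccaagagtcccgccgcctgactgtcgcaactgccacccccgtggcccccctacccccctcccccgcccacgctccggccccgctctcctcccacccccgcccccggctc
Wnt10a: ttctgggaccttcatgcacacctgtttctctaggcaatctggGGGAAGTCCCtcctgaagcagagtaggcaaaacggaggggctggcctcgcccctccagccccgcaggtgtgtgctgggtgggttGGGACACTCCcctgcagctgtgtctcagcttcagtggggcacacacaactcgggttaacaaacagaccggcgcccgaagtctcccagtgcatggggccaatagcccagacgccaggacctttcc
The Axin2 sequence holds 2 matches and the Lef1 sequence none. The Wnt10a sequence holds 2 matches and the Wnt6 sequence none. Of the 55 members, 37 had an entry in the promoter table. The TCF/LEF motif was found in 3 of these (Axin2, Dkkl1 and Wnt8a), against 7.58% of all 33469 promoters of that length, and the NF-kappaB motif in 1 (Wnt10a), against 3.54%. No member promoter held both motifs. A match describes letters in a window and not a bound site.

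Library totals were 26513999 to 42724111 counts in microglia and 23742228 to 35326938 in astrocytes. Levels are given as CPM, the count divided by the library total and multiplied by 1000000, which are not corrected for gene length. Log2 changes come from edgeR, which also scales libraries by TMM factors. This scaling adds 0.20 and 0.31 to the log2 change with ENV and LPS in microglia, 0.01 and 0.02 in astrocytes, and 0.34 and 0.49 to the difference of microglia from astrocytes with buffer and H2O. A log2 change in microglia can therefore differ in sign from its CPM where it lies near 0. A count of 0 allowed up to 0.0702 to 0.126 CPM per library (3 counts, counting error only). Of 10 microglial and macrophage markers, all were listed and their sum was 5359 to 10703 CPM in microglial libraries and 37.1 to 685 CPM in astrocyte libraries. The 10 astrocyte markers summed to 2435 to 11316 CPM in astrocyte cultures and to 24.5 to 291 CPM in microglia, where Gjb6 was at 0. The astrocyte cultures also carried all 12 fibroblast, meningeal and mural cell markers, which summed to 1832 to 11086 CPM. Microglial H2O replicate 3 stood apart from the other H2O libraries, with astrocyte markers at 284 CPM against 62.7 and 75.9 and oligodendrocyte lineage markers at 130 against 15.7 and 16.1. Among LPS-treated microglia, replicate 3 had the lowest microglial marker sum, 5359 CPM against 9308 and 8247. In astrocytes, replicates 3 and 4 of ENV and LPS had the highest sums of the ependyma and choroid plexus markers, 30.2 and 57.2 against 11.8 and 15.7 CPM with ENV, and 45.6 and 59.4 against 8.89 and 6.39 CPM with LPS. Nearly all of these sums was 1 gene, Rarres2 (mean 27 CPM with ENV and 28.9 CPM with LPS). The ciliary gene Ccdc153 did not follow it with ENV (0.638, 1.82, 2.54 and 1.47 CPM). With LPS Ccdc153 was higher in replicates 3 and 4 as well (0.168, 0.342, 2.44 and 1.39 CPM).

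Few members were abundant in microglia. Of the 55, 8 had no count in any microglial library, 32 had a highest group mean under 1 CPM (the 8 among them), 14 lay between 1 and 10 CPM and 9 above 10 CPM. In astrocytes the corresponding numbers were 18, 9 and 23 of 50, and no member was at 0 throughout. The ligand genes Wnt1, Wnt3a, Wnt8a, Wnt8b and Wnt9b were listed in the microglial tables alone and had no count there. Fewer cells of a type and less RNA per cell cannot be told apart in bulk samples such as these.

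Microglia and astrocyte cultures carried different receptors and ligands before stimulation. A comparison of vehicle libraries called 31 of 36 tested members with buffer (6 higher and 25 lower in microglia) and 31 of 37 with H2O (4 higher and 27 lower), where called means an adjusted p under 0.05 in the edgeR quasi-likelihood test. Across all genes tested, 70.0% were called with buffer (33.6% higher, 36.4% lower) and 70.9% with H2O (33.2% higher, 37.7% lower). The median log2 difference of the tested members was -3.01 with buffer and -3.33 with H2O, against -0.01 and -0.11 for all genes. Members with no count in a group, set at the bound that 3 counts give, leave both medians as they are. Cell type, time since isolation and count table go together in this comparison and cannot be told apart.

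The genes higher in microglia were Rspo1, Lef1, Wnt6 and Axin1 under both vehicles. For Axin1 most of the difference with H2O came from the TMM scaling, since its CPM overlapped there (68.1 ± 5.82 in microglia and 65.6 ± 4.62 in astrocytes, SD, n = 3 and 4). Rspo1, which encodes a secreted R-spondin, stood at 33.2, 28.9 and 21.1 CPM in buffer-treated microglia and at 0.0354 to 0.344 CPM in buffer-treated astrocytes (19 counts in all). Its log2 difference was 7.75 ± 0.46 (SE) with buffer and 7.10 ± 0.29 with H2O. Rspo1 was too scarce to be tested in either astrocyte set alone. It was tested here because of its microglial counts, so no p-value is given here. Lef1, a TCF/LEF factor, was at 20.1, 22.5 and 20.5 CPM in microglia against 1.13 to 2.96 CPM in astrocytes with buffer, a log2 difference of 3.90 ± 0.31 (adjusted p = 1.55e-05). These groups were far apart for both genes. Wnt6 was higher by 2.15 ± 0.55 with buffer and by 3.61 ± 0.44 with H2O. Fzd9 (2.65 ± 0.43) and Wnt7b (1.67 ± 0.33) were called as higher with buffer, and with H2O Fzd9 was not tested and Wnt7b was not called (-0.57 ± 1.45). Fzd9, too, was not tested in either astrocyte set alone.

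Most other receptors, antagonists and ligands were higher in the astrocyte cultures. Sostdc1, a secreted antagonist of Wnt and BMP signals, had no count in any of the 12 microglial libraries and a mean of 125 ± 79.9 CPM (SD, n = 4) in buffer-treated astrocytes. Fzd6 stood at 45.0 to 49.3 CPM in buffer-treated astrocytes and at 0 to 0.135 CPM in buffer-treated microglia, which is 5552 counts against 4 (996 times as many per library total, 95% counting interval 389 to 3655). Fzd2 differed by -7.59 ± 0.22 and Sfrp1, which encodes a Wnt-binding antagonist, by -6.70 ± 0.18. The ligand gene Wnt9a, Tcf7 (-5.75) and Dkk3 (-5.63) were lower in microglia as well, each under both vehicles. Wnt9a had 9 counts over the buffer-treated microglia against 1114 over the astrocytes, a ratio of 88.8 (95% counting interval 46.6 to 195). Lgr5 and Fzd10 were also called as lower under both, with 1 count each over the buffer-treated microglia against 952 and 351 over the astrocytes, ratios of 683 (95% counting interval 122 to 26997) and 252 (44.9 to 9971). These genes, like Fzd6, Sostdc1, Wnt9a and Tcf7, were tested because of their astrocyte counts. Lrp6, Lgr4, Tcf7l2 and Sfrp2 were not called under either vehicle, with log2 differences between -0.61 and 0.97. In the plot of vehicle differences, receptors and antagonists lie mostly on the astrocyte side.

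**Figure D1:**
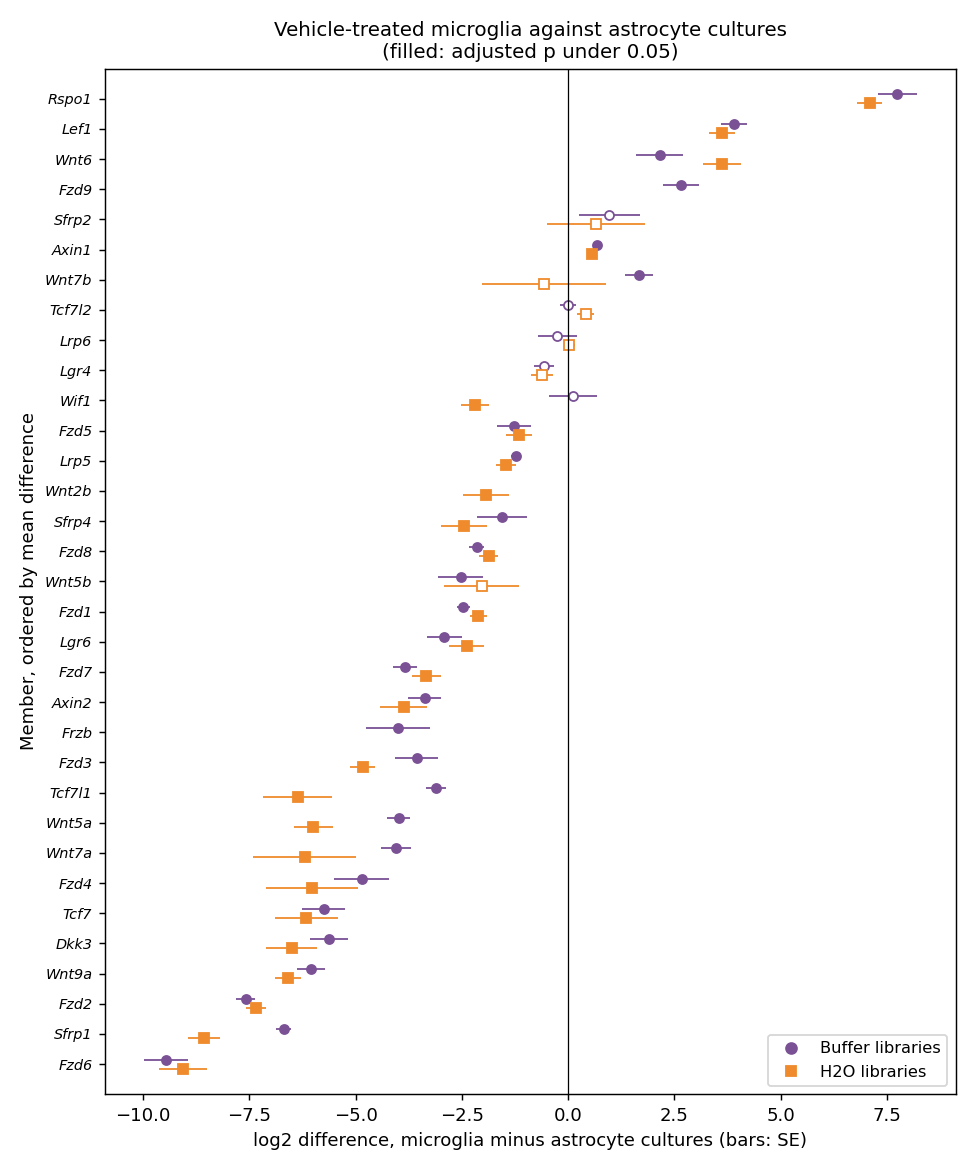
Log2 difference of each tested member between vehicle-treated microglia and astrocyte cultures (x axis), with members ordered by their mean difference (y axis); circles are buffer and squares H2O libraries, bars are standard errors and filled symbols passed an adjusted p of 0.05. Rspo1, Lef1 and Wnt6 lie to the right, higher in microglia, and Fzd2 and Sfrp1 lie far to the left, as does Fzd6, whose value rests on 4 microglial counts with buffer; genes with 3 counts or fewer over a group, such as Sostdc1, Lgr5 and Fzd10, are not drawn for that vehicle.

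In ENV-treated microglia, Lef1, Rspo1, Sfrp2, Fzd5, Axin2, Wnt7b, Lrp5 and Sfrp5 fell and the ligand gene Wnt6 rose. These were 9 of 25 tested members (1 higher and 8 lower), or 36.0%, against 30.9% of all tested genes (16.2% higher, 14.7% lower). The share of members called was thus near that of all genes, while the median log2 change was -0.80 for tested members and -0.03 for all tested genes. With the replicate number as a block, 12 members were called (1 higher and 11 lower), against 39.2% of all genes (19.6% higher, 19.7% lower). Wnt7b lost its call without any single library, and Axin2 without buffer replicate 1 or 2 or ENV replicate 1 or 3. Lrp5 lost it without buffer replicate 1 or 2. Over the fits of all libraries with other settings, the adjusted p reached 0.0974 for Sfrp2, 0.678 for Wnt7b, 0.0838 for Axin2 and 0.0569 for Lrp5. Sfrp5, which had no count with ENV, was tested because of its buffer counts alone.

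In LPS-treated microglia, Lef1, Fzd1, Axin2, Rspo1, Fzd5, Lrp6 and Fzd8 fell, and no member was called as higher. These were 7 of 19 tested members, or 36.8%, against 29.8% of all tested genes (16.0% higher, 13.8% lower). The median log2 change was -1.09 for tested members and -0.02 for all tested genes. With the replicate block 5 members were called, against 30.3% of all genes (15.2% higher, 15.1% lower), and Axin2 and Fzd8 were not among them (adjusted p = 0.0529 and 0.0543 with the block). Without replicate 3 of both groups the count was 7 (1 higher and 6 lower), against 34.9% of all genes.

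Among the TCF/LEF genes, Lef1 moved most. Its level was 20.1, 22.5 and 20.5 CPM with buffer and 1.52, 2.58 and 1.85 CPM with ENV, and 12.5, 16.5 and 22.5 CPM with H2O against 1.09, 0.992 and 1.34 CPM with LPS. All stimulated libraries lay below all vehicle libraries, with no overlap. The log2 change was -3.21 ± 0.21 with ENV (SE, adjusted p = 2.10e-04) and -3.59 ± 0.28 with LPS (adjusted p = 0.00108), in edgeR, n = 3 per group. The other TCF/LEF genes moved less. Tcf7l2 was at 18.8 ± 2.22 CPM with buffer and 13.5 ± 1.58 CPM with ENV (SD), a change of -0.27 ± 0.14 that was not called, and -0.14 ± 0.23 with LPS. Tcf7l1 changed by -1.17 ± 0.38 with ENV (adjusted p = 0.0555, and 0.0140 with the replicate block). Tcf7l1 in the LPS set and Tcf7 in both sets were not tested, and Tcf7 reached at most 0.387 CPM in a microglial library.

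Axin2, the feedback inhibitor whose promoter holds both TCF/LEF matches, was low in microglia and fell in both comparisons. Its level was 2.45, 2.66 and 1.38 CPM with buffer against 0.614, 1.01 and 0.627 CPM with ENV, and 0.530, 1.89 and 1.94 CPM with H2O against 0.253, 0.157 and 0.184 CPM with LPS. The groups did not overlap, although H2O replicate 1 lay near the LPS libraries. The log2 change was -1.32 ± 0.36 with ENV (adjusted p = 0.0310) and -2.54 ± 0.62 with LPS (adjusted p = 0.0262), and the LPS call was kept in only 1 of the 6 fits that left out a library (without H2O replicate 1). Axin1, the constitutive scaffold of the complex, was at 74.5 ± 4.13 CPM with buffer and 68.1 ± 4.80 CPM with ENV, a log2 change of 0.08 ± 0.12 after TMM scaling that was not called, and changed by 0.39 ± 0.13 with LPS (adjusted p = 0.0576).

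Among ligands, Wnt6 stood apart. It was at 1.51, 0.770 and 1.35 CPM with buffer and at 17.7, 14.1 and 14.5 CPM with ENV. The ENV libraries lay above every buffer library, and the log2 change was 3.87 ± 0.31 (adjusted p = 3.36e-04). With LPS it reached 10.1 and 6.47 CPM in replicates 1 and 2 but 1.23 CPM in replicate 3, against 1.44, 2.42 and 1.40 CPM with H2O. These groups overlapped, and the change of 2.07 ± 0.75 was not called (adjusted p = 0.0821). Wnt10a, the neighbour of Wnt6, had 19 counts over the ENV libraries and none over the buffer libraries, at least 6.05-fold higher against a floor of 3 counts over the group. Wnt10b had 16 counts against none (at least 5.10-fold higher) with ENV, and 37 against 1 with LPS, a ratio of 39.5 (95% counting interval 6.66 to 1601). Wnt4 had 21 counts with LPS and 1 with H2O, and most of the 21 came from LPS replicate 1 (0.431 CPM). These low-count ligands did not pass the filter on low counts and were not tested.

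Wnt7b, a ligand known for its role in brain vessel growth, went the other way with ENV. It was at 5.70, 6.93 and 9.03 CPM with buffer and at 1.59, 3.23 and 3.63 CPM with ENV, without overlap, and changed by -1.17 ± 0.33 (adjusted p = 0.0365). Wnt7a changed by -0.78 ± 0.53 (adjusted p = 0.299, and 0.0497 with the replicate block). In the LPS set both genes were near 0 except in replicate 3: Wnt7b was at 0.0505, 0 and 4.21 CPM with H2O and at 0, 0 and 1.23 CPM with LPS. The sum of the 10 astrocyte markers, of which Gjb6 was at 0, was 236 to 291 CPM with buffer and 115 to 233 CPM with ENV, and was high in H2O replicate 3. Its largest part was Slc1a3 (mean 207 CPM with buffer and 86.5 CPM with ENV), while the mean of Gfap was 27 CPM with buffer and 59.0 CPM with ENV. The 10 oligodendrocyte lineage markers, of which Mog and Mobp were at 0 with ENV, went from 205 to 244 CPM to 54.7 to 115 CPM. The part of these cells in the Wnt7b values was not tested. Wnt5a, a ligand of the branch without beta-catenin, was at most 1.09 CPM in a microglial library and changed by -0.92 ± 0.53 with ENV (adjusted p = 0.222). Wnt11 had counts in a single microglial library (buffer replicate 3, 0.0337 CPM), below the floor. The other ligand genes with any count in microglia (Wnt2, Wnt2b, Wnt3, Wnt5b, Wnt9a and Wnt16) reached at most 0.291 CPM and were not tested.

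Rspo1 fell with both stimuli. It stood at 33.2, 28.9 and 21.1 CPM with buffer against 3.39, 3.82 and 3.10 CPM with ENV, and at 10.5, 14.7 and 14.8 CPM with H2O against 1.87, 2.82 and 1.10 CPM with LPS. Neither pair of groups overlapped. The log2 change was -2.81 ± 0.21 with ENV (adjusted p = 2.90e-04) and -2.48 ± 0.36 with LPS (adjusted p = 0.00647). Lgr4, a receptor for R-spondins, changed by 0.01 ± 0.20 with ENV and 0.08 ± 0.27 with LPS, neither called. Lgr6 changed by 0.69 ± 0.46 with LPS, also not called, and Lgr5 reached at most 0.0350 CPM in a microglial library. Rspo2 and Rspo4 had no count in microglia, and Rspo3 had counts in a single library (ENV replicate 2, 0.0653 CPM).

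Several receptor genes fell. Fzd5 was at 10.4, 9.87 and 4.28 CPM with buffer against 1.3, 2.55 and 1.91 CPM with ENV (-1.89 ± 0.39, adjusted p = 0.0120), and at 8.98, 7.60 and 8.08 CPM with H2O against 2.46, 1.80 and 1.89 CPM with LPS (-1.69 ± 0.25, adjusted p = 0.00625). Fzd1 was at 7.29, 9.08 and 11.7 CPM with H2O and at 1.01, 1.02 and 1.5 CPM with LPS (-2.68 ± 0.29, adjusted p = 0.00271). Both Frizzled genes were lower in every stimulated library than in every vehicle library in these comparisons. With ENV, Fzd1 was at 3.03, 6.07 and 4.12 CPM against 9.39, 10.2 and 6.64 CPM with buffer, and the change of -0.79 ± 0.28 was called with the replicate block alone (adjusted p = 0.0707 without and 0.0367 with it). Fzd8 fell by 0.67 ± 0.16 on the log2 scale with LPS (10.8 ± 1.19 to 5.48 ± 0.333 CPM), a call kept in 1 of the 6 fits that left out a library (without LPS replicate 3). Fzd7 changed by -0.66 ± 0.26 with ENV and -1.07 ± 0.46 with LPS, neither called. Fzd2 (-0.80 ± 0.33 and -1.22 ± 0.76) and Fzd3 (-0.37 ± 0.63 and 0.26 ± 0.51) were not called with either stimulus, nor were Fzd8 (-0.37 ± 0.18) and Fzd9 (-0.35 ± 0.48) with ENV. Fzd4, Fzd6 and Fzd10 reached at most 0.490 CPM in a microglial library.

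The LRP co-receptor genes behaved less evenly. Lrp5 was at 17.6, 20.1 and 14.9 CPM with buffer and 6.28, 9.63 and 9.60 CPM with ENV, without overlap (-0.84 ± 0.19, adjusted p = 0.0167). With LPS it was at 6.31, 6.06 and 3.47 CPM against 11.7, 10.1 and 20.3 CPM with H2O, also without overlap, and was not called (-1.09 ± 0.35, adjusted p = 0.0590). Lrp6 was at 39.1, 41 and 34.3 CPM with H2O and at 12.3, 16.0 and 13.1 CPM with LPS (-1.17 ± 0.15, adjusted p = 0.00454). In the ENV set buffer replicate 3 had 9.63 CPM of Lrp6 against 45.7 and 50.5 in the other buffer libraries, below all ENV libraries (17.3, 27.5 and 17.6 CPM), and the change of -0.55 ± 0.54 was not called.

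Of the secreted antagonists, Sfrp2 was at 10.3, 4.80 and 6.27 CPM with buffer and at 2.02, 1.17 and 1.25 CPM with ENV (-2.06 ± 0.39, adjusted p = 0.00894). The groups did not overlap. In the LPS set its H2O values were 1.59, 13.1 and 1.19 CPM against 0.684, 0.548 and 0.446 CPM with LPS, and the change was not called (adjusted p = 0.0747). Sfrp5 had 37 counts over the buffer libraries and none over the ENV libraries, at least 12.9-fold lower against a floor of 3 counts over the group. It was tested because of its buffer counts alone, so no p-value is given for it. Sfrp1 (-1.10 ± 0.51), Wif1 (-1.13 ± 0.63) and Dkk3 (0.49 ± 0.60) were not called with ENV, and Wif1 (-1.77 ± 0.69) and Dkk3 (-0.40 ± 0.73) were not called with LPS. Frzb and Sfrp4 reached at most 0.297 CPM in a microglial library, and Dkk2, Dkk4 and Dkkl1 at most 0.279 CPM. The 12 fibroblast and mural markers, of which Rgs5 was at 0 in both groups and Lum with buffer, summed to 70.2 to 139 CPM with buffer and 34.1 to 64.6 CPM with ENV. Most of that was Pdgfra, also a gene of oligodendrocyte progenitors (106, 118 and 56 CPM with buffer and 21.8, 51.4 and 36.2 CPM with ENV). The collagen gene Col1a2 was at 3.66, 5.01 and 1.92 CPM against 1.44, 1.01 and 0.264 CPM, and Dcn stayed at or below 0.0361 CPM. The part of such cells in the Sfrp2 and Sfrp5 values was not tested. Outside the member list, Sost, which encodes the LRP antagonist sclerostin, fell from 52.3, 74.3 and 60.9 CPM to 0.577, 0.914 and 0.693 CPM with ENV, and from 39.1, 58.2 and 85.5 CPM with H2O to 1.52, 0.287 and 0.0263 CPM with LPS. Its log2 change was -6.21 ± 0.21 (adjusted p = 4.25e-05) and -6.28 ± 1.08 (adjusted p = 0.00990). In the plot of microglial levels, Wnt6 is the panel in which ENV libraries lie above the vehicle.

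**Figure D2:**
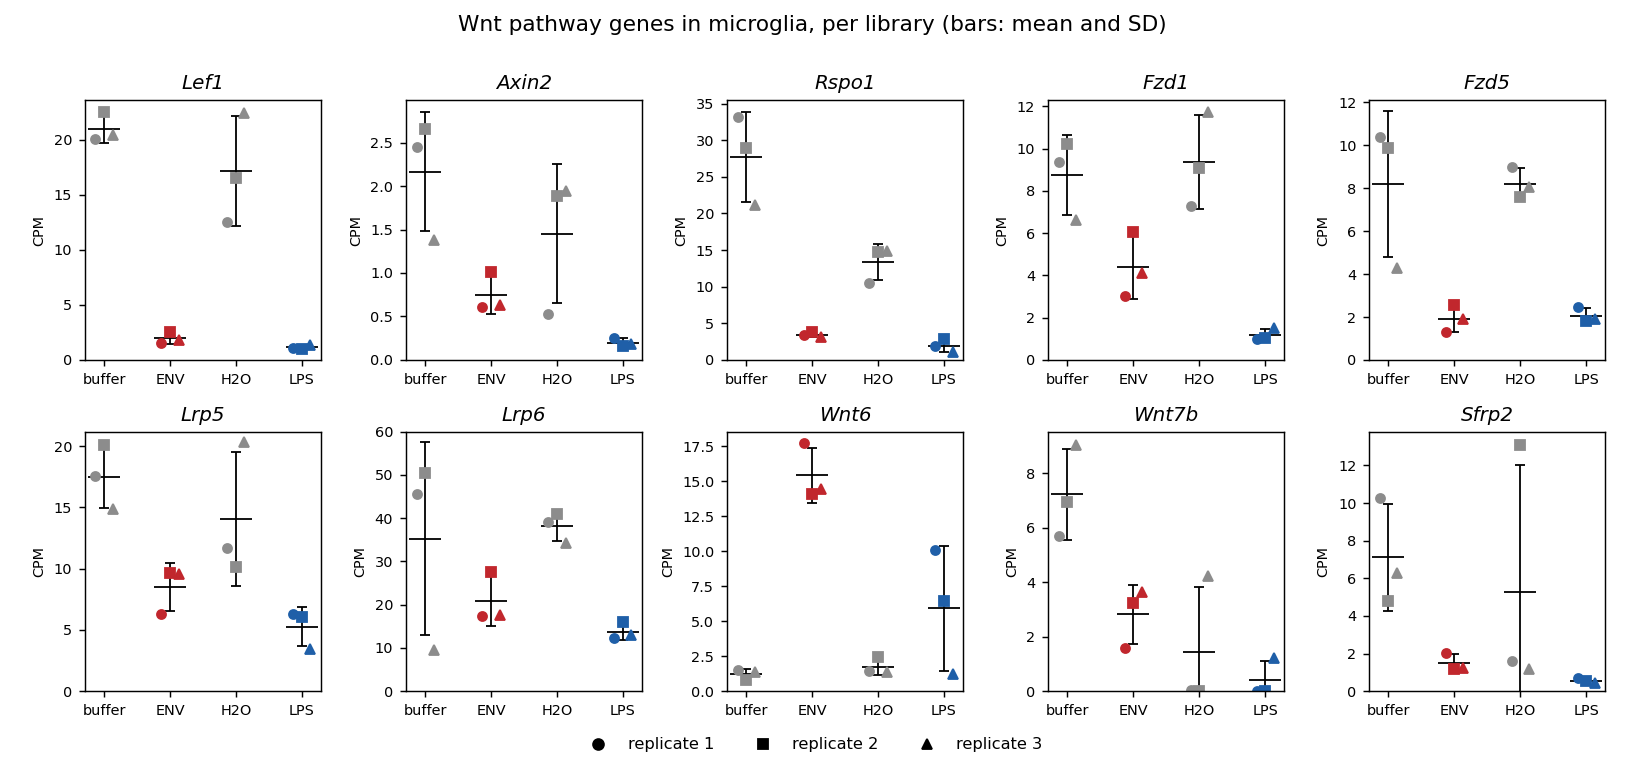
CPM of 10 members in each microglial library (y axis, starting at 0), by group (x axis); symbols mark the replicate number and bars the mean and SD of 3 libraries, cut at 0. Lef1, Rspo1 and Fzd5 are low in all ENV and LPS libraries, Wnt6 is at 14.1 to 17.7 CPM with ENV, and LPS replicate 3 lies apart for Wnt6 at 1.23 CPM.

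In ENV-treated astrocyte cultures, 13 members fell and Rspo3, which was tested because of its ENV counts, rose. The 14 of 36 tested members made 38.9%, against 17.9% of all tested genes (9.52% higher, 8.35% lower), and the median log2 change was -0.56 for tested members and 0.02 for all tested genes. The Frizzled receptors gave 6 of the 13 falls (Fzd1, Fzd3, Fzd4, Fzd5, Fzd7 and Fzd10, of 9 tested), the ligands 3 (Wnt5b, Wnt7a and Wnt9a), the antagonists 3 (Dkk3, Sfrp1 and Sostdc1) and the LGR receptors 1 (Lgr4). With the replicate block 21 members were called (2 higher and 19 lower), against 29.1% of all genes (14.2% higher, 14.9% lower), and all 9 tested Frizzled genes were among the falls. The count was 9 without buffer replicate 1 (11.2% of all genes called), 7 without ENV replicate 1 (11.1%), 7 without buffer replicate 3 (9.82%), 9 without ENV replicate 3 (12.5%) and 8 without ENV replicate 4 (14.7%). It was 0 of 37 tested members with replicates 1 and 2 alone, where 2.48% of all genes were called, and 5 with replicates 3 and 4 alone, where 6.23% were.

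In LPS-treated astrocyte cultures 3 of 34 tested members were called, Sostdc1, Wnt9a and Dkk3, all lower, or 8.82% against 5.34% of all tested genes (2.64% higher, 2.69% lower). With the replicate block the count was 16, all lower, against 17.7% of all genes (7.89% higher, 9.86% lower). The block added Axin2, Fzd1, Fzd2, Fzd3, Fzd4, Fzd5, Fzd6, Fzd8, Lgr4, Lgr5, Sfrp1, Tcf7l1 and Wnt7a. The median log2 change was -0.48 for tested members and 0.03 for all tested genes. The count without the block was 1 without H2O replicate 3 (1.58% of all genes called) or LPS replicate 3 (2.83%) and 5 without LPS replicate 2 (4.56%). It was 9 with replicates 1 and 2 alone (20.1% of all genes called) and 7 with replicates 3 and 4 alone (5.96%).

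Marker sums moved with these groups. The 12 fibroblast, meningeal and mural markers, all detected, summed to 2850 to 11086 CPM with buffer against 1832 to 3463 CPM with ENV, and to 2999 to 10392 CPM with H2O against 1995 to 3689 CPM with LPS. The means of Tagln and Acta2 went from 3561 and 2134 CPM with buffer to 1118 and 213 CPM with ENV. Those of Pdgfra, Dcn and Lum rose with both stimuli (Pdgfra 43.1 to 92.4 CPM with ENV and 40.0 to 80.4 CPM with LPS). The means of the other markers of this list fell with both. The 10 astrocyte markers, all detected, summed to 8453 to 11316 CPM with buffer against 4416 to 8075 CPM with ENV, and to 5284 to 11295 CPM with H2O against 2435 to 8031 CPM with LPS. The astrocyte markers went both ways. With ENV the mean of Gfap went from 5712 to 2062 CPM and that of Slc1a3 from 1125 to 666 CPM, but that of the water channel gene Aqp4 went from 1006 to 2500 CPM and that of Aldh1l1 from 45.5 to 84.0 CPM. The 8 neuronal markers, all detected, summed to 113 to 173 CPM with buffer against 46.1 to 87.2 CPM with ENV, and to 111 to 154 CPM with H2O against 52.9 to 97.9 CPM with LPS. Most of this sum was Map2, whose mean went from 116 to 43.4 CPM with ENV and from 115 to 56.6 CPM with LPS. That of Gad1 went up, from 6.47 to 18.9 CPM with ENV and from 4.96 to 13.8 CPM with LPS. The means of the remaining neuronal markers were lower with ENV. The 10 microglial markers summed to 685, 80.8, 390 and 626 CPM with buffer against 277, 37.1, 197 and 320 CPM with ENV. They summed to 241, 191, 409 and 638 CPM with H2O against 78.6, 49.4, 193 and 300 CPM with LPS. The sum was thus lower in each stimulated library than in the vehicle library of its number. Single microglial markers did not all follow the sum with ENV. The means of Itgam, Ptprc and Aif1 were higher with ENV, and those of the other markers of this list were lower. With LPS the means of all of them were lower. The part of these cell types in the falls of members was not tested.

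The ligand gene Wnt7a gave the largest called fall among astrocyte ligands with ENV. It was at 65.7, 58.3, 67.4 and 67.9 CPM with buffer and at 11.4, 19.1, 9.04 and 8.83 CPM with ENV. The groups were far apart, with a log2 change of -2.41 ± 0.24 (adjusted p = 8.47e-04). With LPS it was at 20.5, 38.3, 10.0 and 11.1 CPM against 57.7, 57.7, 62.3 and 72.2 CPM with H2O, again without overlap (-1.64 ± 0.40, adjusted p = 0.0555, and 0.0284 with the replicate block). Wnt9a fell from 8.58, 10.2, 9.51 and 9.45 CPM to 2.41, 4.21, 4.39 and 3.25 CPM with ENV (-1.39 ± 0.22, adjusted p = 0.00442). With LPS it fell from 10.7, 8.67, 8.58 and 9.60 CPM to 3.71, 4.83, 3.52 and 4.16 CPM (-1.19 ± 0.17, adjusted p = 0.00887). Neither Wnt9a comparison overlapped, and both calls held in each of the 8 fits that left out a library.

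The other astrocyte ligands changed less or were scarce. Wnt5a was at 18.6 ± 1.99 CPM with buffer and 13.2 ± 2.73 CPM with ENV (-0.49 ± 0.17, adjusted p = 0.0806, and 0.0227 with the block), and changed by -0.43 ± 0.29 with LPS. Wnt7b changed by -0.45 ± 0.31 and -0.36 ± 0.28, neither called. Wnt5b, at most 1.27 CPM in an astrocyte library, changed by -1.64 ± 0.49 with ENV (adjusted p = 0.0495). This call was lost with the block (adjusted p = 0.0674) and in 6 of 8 fits without a library, all but those without replicate 2 of either group. Wnt10a had 2 counts with buffer and 37 with ENV, 18.2 times as many per library total (95% counting interval 4.70 to 156), and 31 counts with LPS and none with H2O, at least 10.4-fold higher against 3 counts over the group. Wnt2b (0.35 ± 0.61) and Wnt4 (-1.13 ± 0.51) were not called with ENV, nor was Wnt4 (-1.33 ± 0.79) with LPS. Wnt11 had at most 0.587 CPM, and Wnt2, Wnt3, Wnt10b and Wnt16 at most 0.647 CPM in an astrocyte library.

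Sostdc1, the antagonist without a count in microglia, gave the largest called log2 fall of a member in astrocyte cultures with either stimulus. It was at 53.9, 76.5, 233 and 136 CPM with buffer and at 2.52, 14.0, 21.6 and 14.1 CPM with ENV. It was at 39.8, 46.2, 226 and 143 CPM with H2O and at 4.55, 6.77, 21.6 and 16.0 CPM with LPS. Vehicle libraries of replicates 3 and 4 were the highest, and every stimulated library lay below every vehicle library. The log2 change was -3.23 ± 0.67 with ENV (adjusted p = 0.0140) and -3.18 ± 0.73 with LPS (adjusted p = 0.0467). The LPS call was lost in all 8 fits that left out a library (adjusted p up to 0.122) and had an adjusted p of 6.80e-04 with the replicate block.

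Dkk3, a Dickkopf-family gene, was at 93.0, 102, 108 and 123 CPM with buffer and at 44.4, 54.9, 39.4 and 57.0 CPM with ENV (-1.11 ± 0.13, adjusted p = 0.00159). With LPS it was at 51.8, 52.4, 37.9 and 55.7 CPM against 78.6, 73.3, 102 and 113 CPM with H2O (-0.87 ± 0.17, adjusted p = 0.0259). Groups did not overlap in either set, and the LPS call was lost without LPS replicate 1, LPS replicate 3, H2O replicate 3 or H2O replicate 4. Sfrp1 was at 160, 196, 190 and 244 CPM with buffer and at 88.1, 152, 121 and 124 CPM with ENV (-0.69 ± 0.18, adjusted p = 0.0324), a call kept in 2 of 8 fits without a library (without buffer replicate 1 or ENV replicate 2). With LPS it changed by -0.64 ± 0.19 (adjusted p = 0.101, and 0.0104 with the block). Wif1 changed by 0.34 ± 0.55 with ENV and -0.03 ± 0.39 with LPS, and Sfrp4 by 0.14 ± 0.71 and 0.28 ± 0.33, none of them called. Dkk2 had 28 counts with buffer and 1 with ENV, a ratio of ENV to buffer of 0.0352 (95% counting interval 8.60e-04 to 0.213), and was not tested. Dkk4, Dkkl1 and Sfrp5 had at most 0.440 CPM in any astrocyte library.

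The log2 changes of the 9 tested Frizzled receptor genes lay between -2.04 and -0.25 with ENV and between -2.01 and -0.07 with LPS in astrocyte cultures. The value nearest 0 with LPS was that of Fzd7, which was higher with LPS in replicates 1 and 2 (67.3 and 92.3 against 58.7 and 47.4 CPM) and lower in replicates 3 and 4 (22.1 and 37.5 against 49.8 and 76.3 CPM). Fzd3 was at 89.9, 64.1, 61.2 and 79.2 CPM with buffer and at 49.2, 47.5, 44.6 and 37.8 CPM with ENV, without overlap (-0.70 ± 0.14, adjusted p = 0.0110), a call that held in all 8 fits that left out a library. Fzd5 went from 16.9, 18.4, 24.7 and 43.6 CPM to 9.43, 13.1, 13.2 and 13.9 CPM (-1.04 ± 0.29, adjusted p = 0.0407). Fzd7 went from 44.0, 42.7, 47.7 and 80.5 CPM to 26.7, 37.2, 22.0 and 31.4 CPM (-0.85 ± 0.23, adjusted p = 0.0347). The last 2 comparisons also showed no overlap, with buffer replicate 4 the highest in each, and each call was kept in 3 of 8 fits without a library (Fzd5 without buffer replicate 1, 2 or 4, Fzd7 without buffer replicate 2 or 4 or ENV replicate 2).

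Fzd1 was at 60.7, 62.9, 58.9 and 67.3 CPM with buffer and at 33.2, 39.9, 48.8 and 49.5 CPM with ENV, without overlap (-0.53 ± 0.14, adjusted p = 0.0308). Fzd4 was at 15.9, 20.5, 11.7 and 4.39 CPM with buffer and at 3.12, 5.09, 3.25 and 1.33 CPM with ENV (-2.04 ± 0.54, adjusted p = 0.0343). These Fzd4 groups overlapped, because buffer replicate 4 lay below ENV replicate 2. Fzd10, at 1.84 to 3.93 CPM with buffer, changed by -1.45 ± 0.39 (adjusted p = 0.0362). The Fzd1 call was kept only without ENV replicate 1, 3 or 4, the Fzd4 call only without ENV replicate 2 or buffer replicate 4, and the Fzd10 call only without replicate 2 of either group. Fzd8 showed the replicate pattern plainly: with ENV it was at 19.2, 35.1, 11.5 and 7.67 CPM against 47.4, 57.0, 42.2 and 46.0 CPM, and its call came with the block (adjusted p = 0.0561 without and 0.0106 with it). Fzd2 (-0.73 ± 0.22) and Fzd6 (-0.25 ± 0.09) were also called with the block alone, and Fzd9, at most 0.494 CPM, was not tested.

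Lgr4 went from 37.6, 32.2, 36.2 and 59.5 CPM with buffer to 21.1, 24.6, 23.9 and 26.5 CPM with ENV, without overlap (-0.76 ± 0.17, adjusted p = 0.0199). The call was lost without ENV replicate 1. Lgr5, known as a stem cell marker in other tissues, changed by -0.96 ± 0.47 with ENV and -1.30 ± 0.41 with LPS, called with the block alone in each (adjusted p = 0.0184 and 0.0106). Lgr6 changed by -0.11 ± 0.28 and -0.50 ± 0.28, neither called, and Rspo1, Rspo2 and Rspo4 reached at most 0.587 CPM in an astrocyte library. The LRP genes did not show a fall of this size in astrocytes. Lrp5 was at 53.2 ± 3.78 CPM with buffer and 52.9 ± 5.57 CPM with ENV (0.01 ± 0.09), and Lrp6 at 53.4 ± 3.76 and 51.6 ± 2.60 CPM (-0.04 ± 0.09). With LPS they changed by 0.07 ± 0.11 and -0.03 ± 0.12.

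No Axin or TCF/LEF gene was called in astrocyte cultures without the replicate block. Axin2 was at 37.6, 35.9, 25 and 16.3 CPM with buffer and at 15.7, 25.5, 16.2 and 12.2 CPM with ENV. The groups overlapped, but each ENV library lay below the buffer library of its number, and the change was -0.72 ± 0.32 without the block (adjusted p = 0.161) and -0.69 ± 0.16 with it (adjusted p = 0.0211). With LPS the change with the block was -0.49 ± 0.11 (adjusted p = 0.0327). Tcf7l1 changed by -0.39 ± 0.12 with ENV (adjusted p = 0.0580, and 0.0150 with the block). Tcf7l2 (-0.53 ± 0.17), Tcf7 (-0.59 ± 0.35), Lef1 (-0.49 ± 0.45) and Axin1 (0.21 ± 0.10) were not called with ENV.

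**Figure D3:**
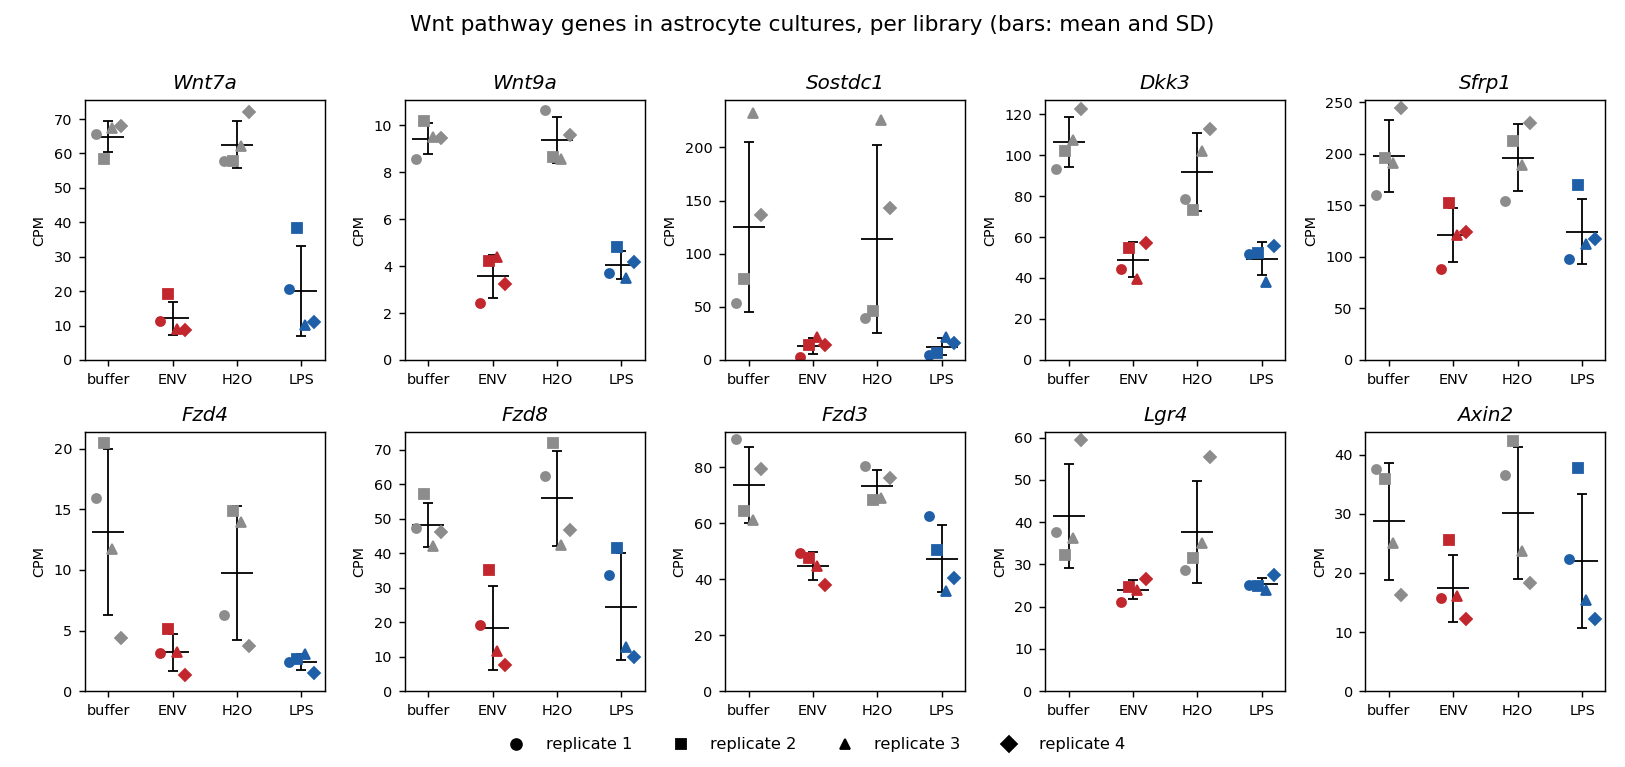
CPM of 10 members in each astrocyte library (y axis, starting at 0), by group (x axis); symbols mark the replicate number and bars the mean and SD of 4 libraries. Wnt7a, Wnt9a, Sostdc1 and Dkk3 are lower in every ENV and LPS library than in every library of their vehicle, and with ENV the Fzd4 and Axin2 groups overlap.

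A small set of members had higher means in stimulated astrocyte cultures. Rspo3, an R-spondin gene that microglia barely carried, was at 0.551, 0.531, 0.313 and 0.226 CPM with buffer and at 5.60, 2.45, 8.35 and 6.09 CPM with ENV (3.79 ± 0.48). It passed the filter on low counts because of its stimulated libraries, so no p-value is given for it. The groups did not overlap. With LPS it was at 1.01, 0.837, 4.45 and 4.57 CPM against 0.526, 0.484, 0.278 and 0.290 CPM with H2O, also without overlap, and was not called with or without the block (2.79 ± 0.67).

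Wnt6, Sfrp2 and Frzb were highest in replicates 3 and 4. Sfrp2 was at 13.8, 6.73, 24.6 and 69.5 CPM with ENV against 2.00, 1.42, 3.01 and 12.8 CPM with buffer, a change of 2.61 ± 0.90 without the block (adjusted p = 0.0810) and 2.65 ± 0.17 with it (adjusted p = 4.25e-04). With LPS it was at 2.36, 1.18, 23.4 and 58.5 CPM against 0.947, 1.64, 3.38 and 13.8 CPM. Frzb, an SFRP-family antagonist, was at 1.84, 1.07, 7.87 and 34.3 CPM with ENV against 3.07, 0.602, 3.72 and 4.87 CPM with buffer (1.91 ± 1.06, adjusted p = 0.254), and the groups overlapped. With replicates 1 and 2 alone its log2 change was -0.38 with ENV and -0.92 with LPS. Wnt6 was at 0.638, 0.126, 2.08 and 5.78 CPM with ENV against 0.551, 0.106, 0.196 and 0.538 CPM with buffer (2.62 ± 1.03, adjusted p = 0.118), and at 2.18 and 5.42 CPM in LPS replicates 3 and 4 against 0.168 and 0.228 CPM in replicates 1 and 2. Against the H2O library of the same number, Wnt6 was higher with LPS in 2 pairs and lower in 2. It was not tested in the LPS set. The ependyma and choroid plexus markers, of which 4 of 5 were listed and Ttr was at 0 in the ENV and LPS libraries, also had their highest sums in replicates 3 and 4 of both groups. These sums were almost wholly Rarres2 (11.2, 13.8, 27.5 and 55.5 CPM with ENV, 8.42, 6.05, 43.2 and 57.8 CPM with LPS), and Tmem212 stayed at or below 0.295 CPM in ENV and LPS libraries. Ccdc153 was higher in replicates 3 and 4 with LPS (0.168, 0.342, 2.44 and 1.39 CPM) but not in both with ENV (0.638, 1.82, 2.54 and 1.47 CPM). The part of such cells in these values was not tested.

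**Figure D4:**
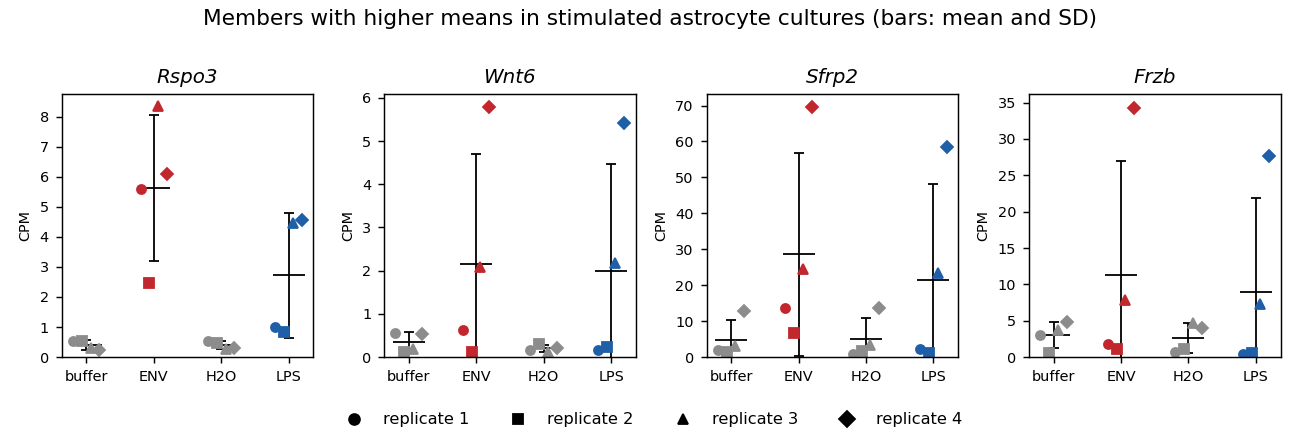
CPM of Rspo3, Wnt6, Sfrp2 and Frzb in each astrocyte library (y axis, starting at 0), by group (x axis); symbols mark the replicate number and bars the mean and SD of 4 libraries, cut at 0. Replicates 3 and 4 are the highest LPS libraries in all 4 panels, and with ENV replicate 4 reaches 69.5 CPM for Sfrp2 and 34.3 CPM for Frzb.

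Whether ENV and LPS changed the members by different amounts was tested as an interaction in each cell type. None of 28 tested members was called in microglia and none of 39 in astrocytes in edgeR, and 0% of all genes were called in either. At an unadjusted p under 0.05 there was 1 member in each, Fzd1 in microglia (ENV change minus LPS change 1.91 ± 0.41, adjusted p = 0.538) and Fzd10 in astrocytes (-1.10 ± 0.49, adjusted p = 1.00). DESeq2 called 1 member in microglia and 0 in astrocytes. A p that misses the threshold does not show that the stimuli act alike, and the standard errors of the differences reached 2.38 for Wnt7b in microglia.

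Some responses differed between microglia and astrocyte cultures. For ENV the interaction called 5 of 38 tested members (1 higher and 4 lower in microglia), or 13.2%, against 14.9% of all tested genes (6.87% higher, 8.07% lower), so the share was near that of all genes. Sfrp2 fell in microglia and had a higher mean in stimulated astrocytes, a difference of -4.68 ± 1.19 (adjusted p = 0.0198). Lef1 differed by -2.72 ± 0.56 (adjusted p = 0.00653) and Lrp5 by -0.86 ± 0.20 (adjusted p = 0.0121). Rspo1 differed by -2.55 ± 0.74 (adjusted p = 0.0369). It was too scarce to be tested in the astrocyte ENV set alone and was tested here because of its microglial counts. Its astrocyte response therefore rests on few counts. The remaining call, Fzd10, had at most 0.0989 CPM in a microglial library of this set, which is at the floor, and was tested because of its astrocyte counts, so no size is given for it. The count was 3 without microglial buffer replicate 1 (10.8% of all genes called), astrocyte buffer replicate 3 (11.1%) or astrocyte buffer replicate 4 (14.7%), 2 without microglial ENV replicate 2 (11.5%) or 3 (11%), and 8 without microglial buffer replicate 3 (16.8%).

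For LPS the interaction called 4 of 40 tested members, all lower in microglia, or 10.0%, against 12.5% of all tested genes (5.32% higher, 7.14% lower). Lef1 differed by -3.22 ± 0.43 (adjusted p = 9.11e-04), Fzd1 by -2.16 ± 0.36 (adjusted p = 0.00280), Lrp5 by -1.20 ± 0.33 (adjusted p = 0.0337) and Lrp6 by -1.16 ± 0.19 (adjusted p = 0.00258). Lef1 and Lrp5 were called in both interactions. The median difference over all genes was -0.12, so these values are relative to a small common shift. Time since isolation differs between the cell types, and cannot be told apart from cell type here.

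**Figure D5:**
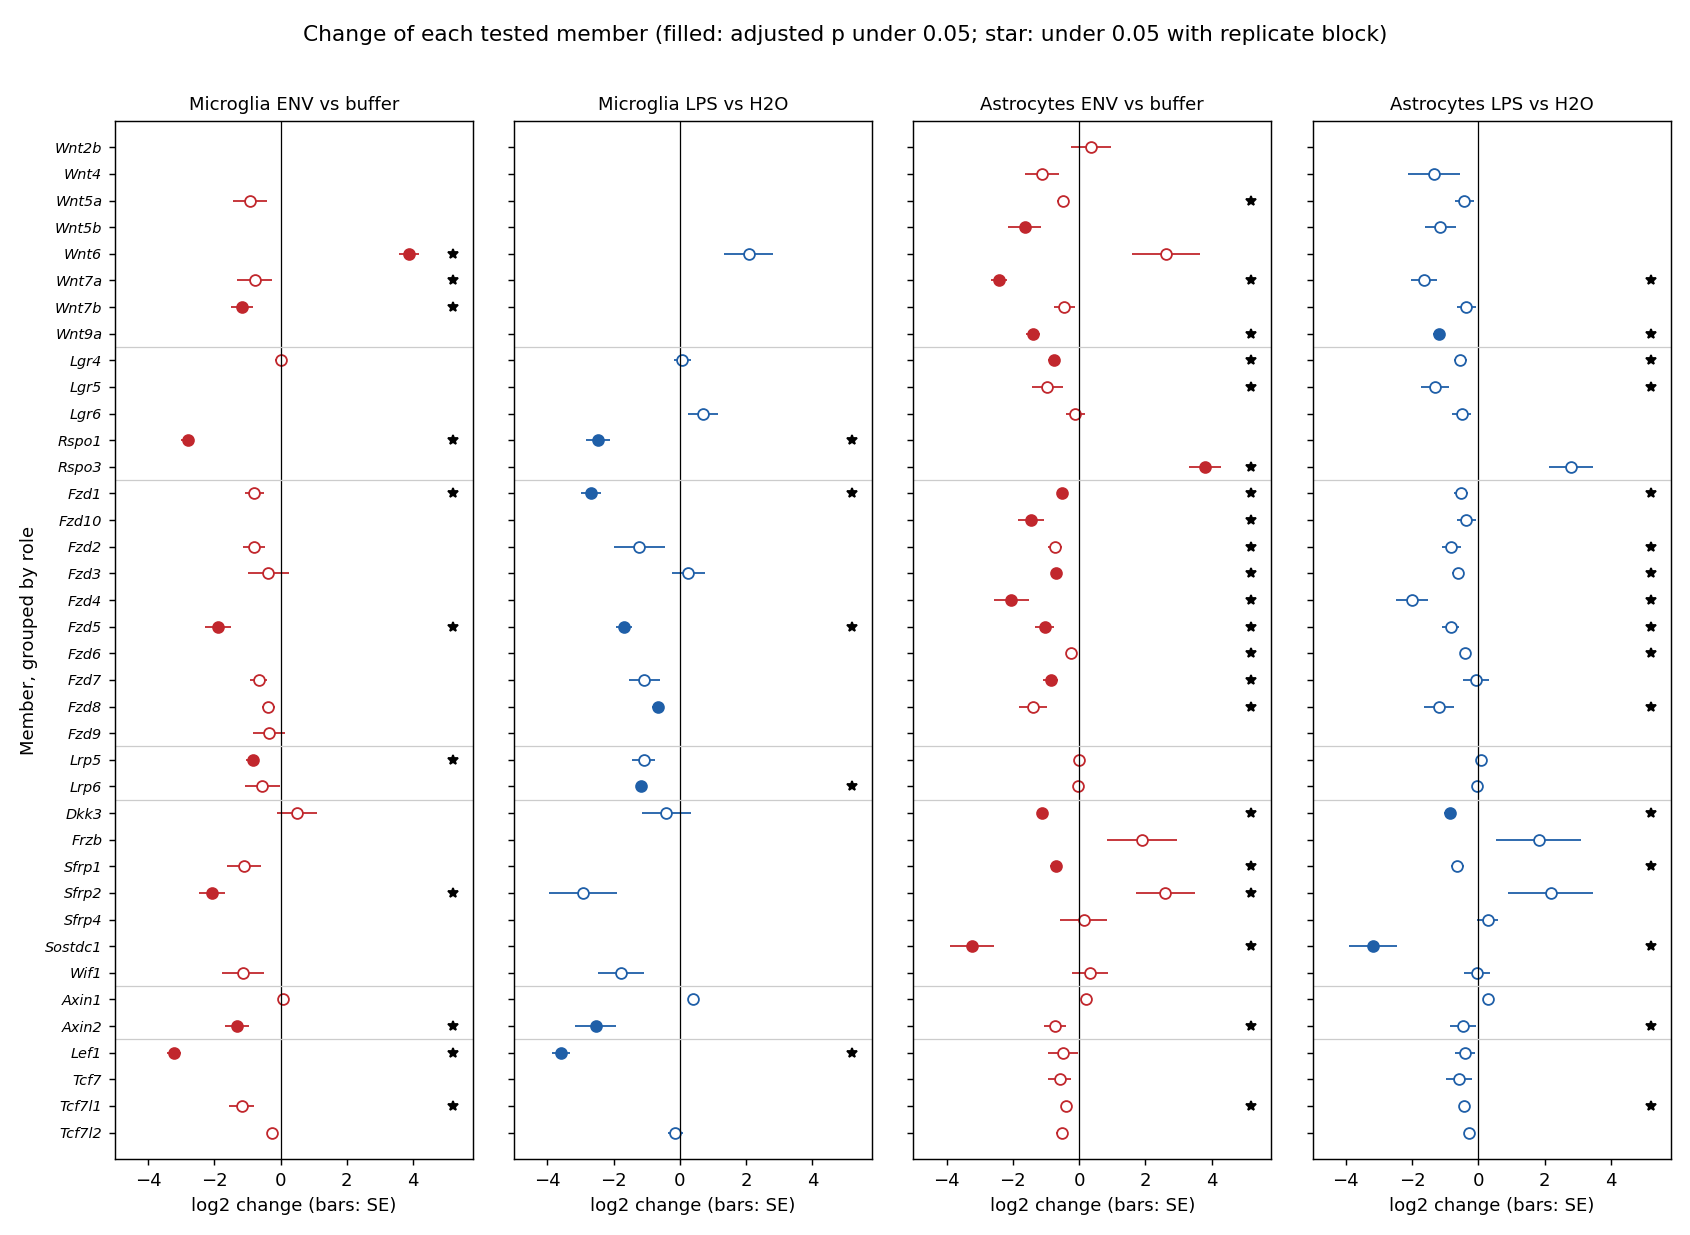
Log2 change of each tested member (x axis) in the 4 treated comparisons, with members grouped by role (y axis, grey lines between roles); bars are standard errors, filled circles passed an adjusted p of 0.05 and stars mark those that passed it with the replicate block. Astrocyte LPS has 3 filled circles and 16 stars, and Wnt6 in microglia and Rspo3 in astrocytes are the filled circles to the right of 0 under ENV; Sfrp5 in microglia, with no count under ENV, is not drawn.

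Genes around the members were read from 4 pathway lists, to be set beside the shares of all genes called, 30.9% and 29.8% in microglia with ENV and LPS and 17.9% and 5.34% in astrocytes. Among 20 genes of Wnt secretion and membrane accessories, 1 rose and 6 fell of 15 tested with ENV in microglia, 1 rose and 5 fell of 12 with LPS in microglia, 2 rose and 5 fell of 18 with ENV in astrocytes, and 2 rose and none fell of 18 with LPS in astrocytes. These were 46.7%, 50%, 38.9% and 11.1% of the list's tested genes. Wls, the carrier that takes Wnt proteins to the cell surface, fell by 0.86 ± 0.12 and 1.49 ± 0.24 on the log2 scale in microglia with ENV and LPS, and by 1.00 ± 0.16 in astrocytes with ENV. Porcn, the enzyme that adds the lipid, fell in microglia, with changes of -1.33 ± 0.21 and -1.65 ± 0.45. Tpbg, an inhibitor of Wnt signalling at the membrane, rose by 1.31 ± 0.13 and 1.01 ± 0.16 in astrocytes, and Apcdd1, another membrane inhibitor, by 1.49 ± 0.25 and 1.24 ± 0.23. Znrf3, the ligase that removes Frizzleds, changed by -2.10 ± 0.41 with LPS in microglia and -0.56 ± 0.15 with ENV in astrocytes.

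Of 28 genes (26 listed) of beta-catenin signalling in the cytoplasm and nucleus, 2 rose and 4 fell of 26 tested with ENV in microglia and 3 rose and 3 fell of 23 with LPS, while in astrocytes none rose and 2 fell with ENV and 1 with LPS, of 26 tested each. These were 23.1% and 26.1% in microglia and 7.69% and 3.85% in astrocytes, below the shares of all genes. The median log2 changes of this list were -0.11 and -0.05 in microglia and 0.04 and 0.04 in astrocytes. Of 25 genes of the polarity and calcium branch, 1 rose and 3 fell of 23 with ENV in microglia, 2 fell of 21 with LPS, and 2 and 1 fell of 25 in astrocytes. Of 20 beta-catenin target genes, many of them shared with other pathways, 1 rose and 4 fell of 16 with ENV in microglia, 1 rose and 1 fell of 14 with LPS, 2 rose and 3 fell of 19 with ENV in astrocytes, and 1 rose and 1 fell of 19 with LPS. The target that rose in every comparison was Cd44, an adhesion receptor that inflammatory signals also induce, by 1.29 ± 0.23 and 2.61 ± 0.66 in microglia and 1.39 ± 0.27 and 1.14 ± 0.26 in astrocytes. The targets that fell in microglia with ENV were Nkd2 (-1.67), Nrcam (-1.61), Myc (-1.41) and Plaur (-1.10). With LPS Nrcam fell there (-1.72). In astrocytes Mycn (-2.21), Jun (-1.10) and Ephb2 (-0.87) fell with ENV, where Myc rose (0.53), and Ccn4 (-1.19) fell with LPS.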

How the data were processed

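Messenger RNA libraries were made with the VAHTS Universal V6 kit, per the labels. The authors deposited whole-number counts per gene symbol for each of 28 libraries, not normalized. The submitters' processing notes name HISAT2, StringTie 1.3.3b and the build mRatBN7.2. What each did, the annotation and the strand setting are not stated in the sources used here. Genes were joined by symbol, and all 55 members matched a RefSeq symbol.

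Stimulated libraries were tested against those of their vehicle with edgeR 4.0.16 (quasi-likelihood F test, two-sided, TMM factors, filterByExpr, robust fit, with limma 3.58.1 in R 4.3.3). P-values were adjusted by Benjamini-Hochberg over all genes tested, with a threshold of 0.05. Interactions were contrasts of the same kind of model. The code was tested on simulated data. Count ratios carry 95% exact conditional intervals, and since PCR reads without molecular identifiers are not independent molecules, these and the floors reflect counting error alone.

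Members and gene lists were chosen with earlier results of these data known. Values per library are given for called members of 5 CPM or more in one group whose groups do not overlap (up to 8 each way), and values for a fixed panel. Other members with values per library (Fzd8 and Axin2 in astrocytes, Wnt6, Sfrp2 and Frzb among them) were added after their values were seen.

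Same-numbered libraries of a stimulus and its vehicle deviated together (correlations of 0.26 to 0.64 across genes, each above 0.1). The numbers were therefore taken to pair them, and a fit with the replicate number as a block stands beside each of these comparisons. Some differently numbered libraries correlated too. Astrocyte LPS replicate 2 did so with H2O replicate 1 (0.53) as much as with H2O replicate 2 (0.53), so the number is not singled out there. LPS replicate 1 with H2O replicate 2 gave 0.40, against 0.61 with its own number. LPS replicates 3 and 4 crossed at 0.28 and 0.32, against 0.55 and 0.63 with their own numbers. No pair of libraries held identical values. DESeq2 1.42.0, RLE factors, no filter, a joint fit of a cell type's groups, parts of the replicates and leaving out each library were the alternatives.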

Additional observations from a re-analysis of the deposited data

Results flagged for a closer look

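In 7 of 124 sets of 4 astrocyte libraries with a mean of at least 1 CPM, 1 library lay apart from the other 3 of its group by Dixon's ratio. Chance alone gives about 1 such case in 20 sets. In LPS replicate 2 Fzd10 was at 2.36 CPM, above its group, and Lgr6 at 0.989 CPM, below it. In ENV replicate 2 Lgr5 (7.55 CPM) and Tcf7 (17.4 CPM) lay above the other ENV libraries. In buffer replicate 4 Fzd7 (80.5 CPM) and Sfrp2 (12.8 CPM) were above the other buffer libraries, and in LPS replicate 3 Wif1 was at 3.98 CPM.

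The response differed between microglia and astrocyte cultures, by the interaction term in edgeR, for 4 members with each stimulus. These had a mean of at least 5 CPM in any group. With ENV the log2 change in microglia minus that in astrocytes was -4.68 for Sfrp2, -2.72 for Lef1, -2.55 for Rspo1 and -0.86 for Lrp5. Rspo1 was scarce in astrocytes and was tested because of its microglial counts. With LPS it was -3.22 for Lef1, -2.16 for Fzd1, -1.20 for Lrp5 and -1.16 for Lrp6.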

How the results depend on the processing

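The replicate block, fitted for the 4 comparisons of a stimulus with its vehicle and for ENV minus LPS, moved the count of called members by over 1.5 times in LPS-treated astrocytes (16 against 3). The other members whose call it changed are given with their values in the report, and it changed no other call. For ENV minus LPS the block called 0 of 28 members in microglia (0.00754% of all genes) and 0 of 39 in astrocytes (0%). With DESeq2 the counts were 11 in LPS-treated microglia (39.5% of all genes called), 22 and 11 in ENV- and LPS-treated astrocytes (25.2% and 13.9%), 1 for ENV minus LPS in microglia (0.505%), and 8 and 7 for microglia minus astrocytes with ENV and LPS (21.5% and 20.5%). The joint fit of a cell type's groups gave 5 and 13 in microglia with ENV and LPS (23.1% and 37.0%) and 9 in LPS-treated astrocytes (11.2%). Replicates 1 and 2 alone gave 0 and 9 in astrocytes with ENV and LPS, and replicates 3 and 4 alone 5 and 7. Leaving out 1 library gave 7 to 17 members for ENV and 1 to 5 for LPS in astrocytes, and 2 to 8 for microglia minus astrocytes with ENV. The cause of these moves was not tested.

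Log2 changes that turned sign belonged to members that were not called. Over the fits without 1 library, microglial values with ENV ranged from -0.0039 to 0.15 for Axin1, -0.035 to 1.08 for Dkk3 and -0.15 to 0.19 for Lgr4. With LPS they ranged from -0.81 to 0.54 for Dkk3, -0.12 to 0.27 for Lgr4 and -0.35 to 0.0081 for Tcf7l2. Astrocyte values with ENV ranged from -0.039 to 0.080 for Lrp5, -0.092 to 0.0075 for Lrp6 and -0.017 to 0.59 for Wif1, and with LPS from -0.45 to 0.19 for Fzd7, -0.11 to 0.039 for Lrp6 and -0.55 to 0.13 for Wif1. Without replicate 3 of both microglial LPS groups Dkk3 was at 0.19 and Lgr4 at -0.078, and at 0.22 and -0.074 with the block as well, a setting chosen after seeing the data. With replicates 1 and 2 alone Frzb was at -0.38 (ENV) and -0.92 (LPS), Lrp5 at -0.12 (ENV), and Fzd7 at 0.56 and Tcf7l2 at 0.072 (LPS). With replicates 3 and 4 alone Lef1 was at 0.051 and Lrp6 at 0.15 (ENV), and Lrp6 at 0.13 and Wif1 at 0.36 (LPS). Lrp5 in ENV-treated astrocytes was at -0.018 with DESeq2 and with RLE factors, -0.00016 without the filter and -0.013 in the joint fit.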
